A study of Rattus norvegicus with 144 samples.

Results

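The genes described here are 36 rat genes of glucose uptake, glycolysis and the response to low oxygen. Members were probe sets whose platform annotation gave exactly 1 gene symbol. That symbol, replaced by RefSeq's for the annotated gene identifier where there was one, had to be on the list. The larger of the deposited value tables, which covers adrenal gland and pancreas under both compounds and liver under AMG B, held 48 such probe sets for 34 of the 36 genes, among 31042 probe sets. The smaller table, which covers liver under AMG A, held 45 probe sets for 33 genes, among 15866. Gapdh and Pkm had no probe set with exactly 1 symbol in either table, and Car9 had none in the smaller one. They are not described there. Of the 34 genes, 12 had several probe sets, which were kept apart.

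Cells that run short of oxygen stop hydroxylating the hypoxia-inducible factors, HIFs, which then accumulate and switch on a set of target genes. The targets bring glucose into the cell, run it through glycolysis to lactate, hold pyruvate back from the mitochondria and induce the very hydroxylases that mark HIF for destruction. HIF-1 alpha itself is regulated mainly after translation, so its transcript need not follow its activity.

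The rats were male Sprague Dawley animals of 8 to 10 weeks, given an oral dose daily of either AMG A or AMG B, code-named compounds that the submitters describe as acting against blood vessel growth. AMG A was given at 0, 3 or 30 mg/kg and AMG B at 0, 3 or 60 mg/kg, for 1, 4 or 14 days in liver (both compounds) and in adrenal gland (AMG B), and for 14 days in adrenal gland (AMG A) and pancreas (both). There were 36 groups of 4 animals, 144 arrays from 72 animals, because several tissues came from the same animal. Every dose was compared with the undosed animals of the same study, tissue and day. The labels of the day 14 adrenal and pancreas controls do not name the study, which was taken from their animal numbers.

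Values are the deposited scores. Each probe set had been standardised to a mean near 0 and a standard deviation (SD) near 1 over all arrays that carry it, so a difference of 1 is 1 SD of that probe set across tissues and treatments. It is neither a fold change nor an amount, and scores of different probe sets cannot be ranked as amounts. The 15866 probe sets of the smaller table are in the larger one too and were standardised over both together. Array medians were -0.774 to -0.729 in the smaller table and -0.109 to 0.062 in the larger one, which also holds liver, so levels and differences were not compared across tables. No depth or detection call comes with the scores, and 4 arrays a group limit the precision. In the controls of day 14 the tissues matched their labels: the mean score of 6 adrenal cortex probe sets was 1.29 to 1.45 in adrenal gland, -0.69 in liver and -0.68 to -0.67 in pancreas, and that of 8 acinar probe sets was 2.32 to 3.13 in pancreas. The day 14 adrenal controls of AMG B stood apart from those of days 1 and 4, as described with the time course. The arrays are of whole tissue, in which fewer cells of a type and less RNA per cell cannot be told apart.

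In 1 setting the genes rose together: the adrenal gland after 14 days of AMG B at 60 mg/kg. There 27 of the 48 member probe sets, for 23 of the 34 measured genes, were higher than in controls at an adjusted p under 0.05, and 0 were lower. The same test called 5.96% of all 31042 probe sets in either direction and 3.12% as higher. The members' median difference was 0.91 and that of all probe sets was 0.00087. In 28 of the 48 member probe sets every treated animal lay above every control, which held for 5.16% of all probe sets. The list was drawn up with earlier results of these data known, so these shares are not an independent test of it. Tests are moderated tests of limma with Benjamini-Hochberg adjustment over all probe sets of a table. In the 20 dose comparisons with 0 members called, 1 to 8 member probe sets had an unadjusted p under 0.05. Over all probe sets of those comparisons the share was 3.47% to 12.1%.

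**Figure D1:**
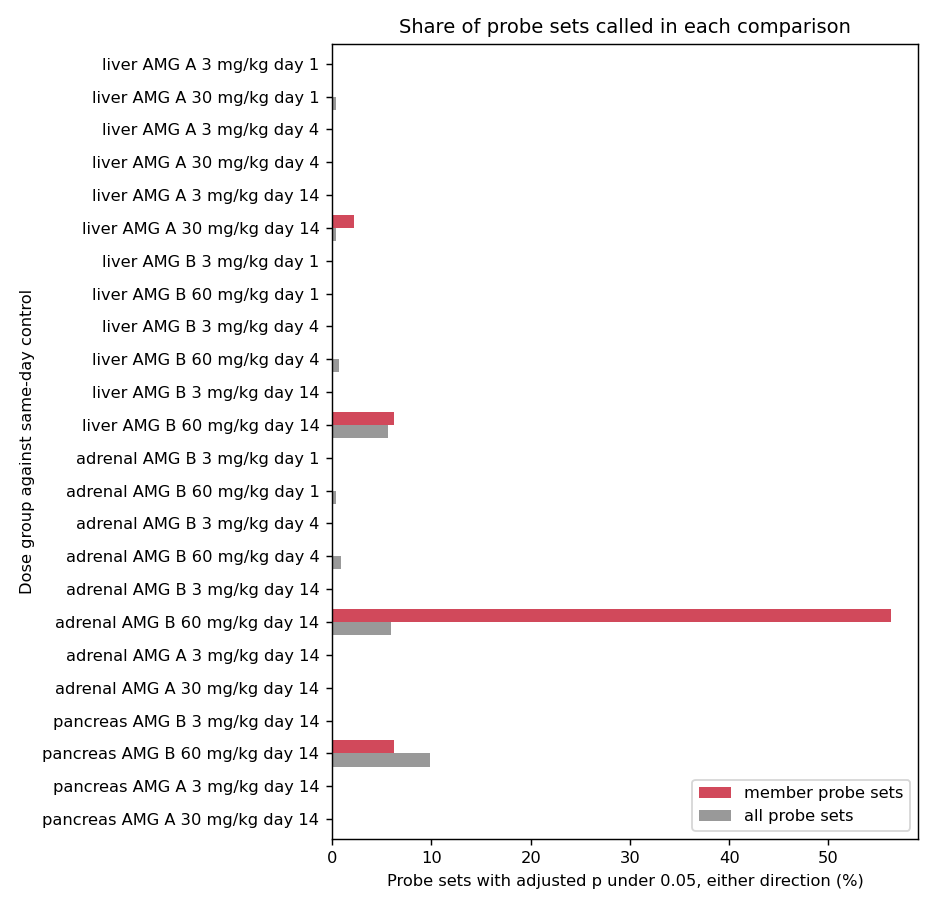
Share of probe sets with an adjusted p under 0.05 (x axis, %) in each of the 24 comparisons of a dose with its same-day controls (y axis), for member probe sets (red) and all probe sets (grey). The red bar of adrenal gland, AMG B 60 mg/kg, day 14 stands for 27 of 48 member probe sets against 5.96% of all probe sets.

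By role, most of the measured glycolytic enzymes were called. Of 4 genes of glucose uptake and trapping 2 were called, on 2 of 6 probe sets. Of 9 measured glycolytic enzymes 8 were called, on 8 of 11. Of 4 genes of flux control and lactate export 4 were called, on 6 of 8. Of 4 oxygen-sensing genes 2 were called, on 2 of 5, and of 3 mitochondrial genes 2, on 3 of 5. Of the 10 other HIF targets 5 were called, on 6 of 13. The same test called 3.12% of all probe sets as higher.

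Slc2a1, the glucose transporter GLUT1, had the widest difference. Control animals scored 0.27, -0.038, 0.41 and 0.34, and treated animals 6.89, 2.88, 4.53 and 4.27. The groups did not overlap, and the difference was 4.40 ± 0.38 (standard error, n = 4 and 4, adjusted p = 3.6e-10). Standard errors after ± come from the spread that a fit shares among all its groups. Hk2, a hexokinase that traps glucose as glucose 6-phosphate, scored 0.38, 0.32, -0.75 and 1.17 in controls and 6.23, 1.78, 1.42 and 5.74 in treated animals. Its treated values split into a pair near 6 and a pair under 2, with the latter still above every control, and the difference was 3.51 ± 0.60 (adjusted p = 0.00019). The transporter Slc2a3 and the hexokinase Hk1, on 2 probe sets each, did not pass the test, with differences of 0.92 and 0.24 for Slc2a3 and of 0.54 and 0.31 for Hk1.

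Among the glycolytic enzymes, Gpi, which isomerises glucose 6-phosphate, gave tight controls of 1.19, 1.17, 1.21 and 1.21 and treated scores of 5.11, 3.42, 2.20 and 2.74, a difference of 2.17 ± 0.30 (adjusted p = 7.1e-06). Eno1, the enolase, scored 1.30, 1.01, 0.87 and 1.01 in controls and 3.57, 2.39, 3.03 and 2.87 in treated animals. Its lowest treated animal stood well above its highest control, and the difference was 1.92 ± 0.17 (adjusted p = 9.6e-10). The phosphofructokinase subunits also rose, Pfkl by 1.64 ± 0.36 and Pfkp by 1.53 ± 0.24, as did Tpi1, the triose phosphate isomerase, by 1.23 ± 0.19. Ldha, which makes lactate from pyruvate, scored -0.87, -0.65, -0.77 and -0.79 in controls and 0.57, -0.16, -0.13 and -0.13 in treated animals (difference 0.81 ± 0.12, adjusted p = 2.2e-05). Aldoa, an aldolase, rose least, by 0.39 ± 0.10 (adjusted p = 0.016). It missed the threshold after quantile normalization, with an adjusted p of 0.228, and after leaving out any 1 of 4 animals (26, 28, 33 or 36). Quantile normalization also ended the calls of Pfkl (adjusted p = 0.104), Pgk1 (0.0531) and Pfkfb3 (0.155).

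Pgk1, the phosphoglycerate kinase, was called on 1 of 3 probe sets, and that call was weak. Probe set 1368906_at scored -0.50, -1.19, 0.80 and -1.15 in controls and -0.67, 3.64, 1.29 and 0.64 in treated animals, so the groups overlapped, at a difference of 1.74 ± 0.54 (adjusted p = 0.046). That call was lost when any 1 of 5 of the 8 animals was left out, with an adjusted p of up to 0.277. Its probe sets 1387361_s_at and 1388318_at differed by 0.51 and 0.50 without passing the test. Pgam1, the phosphoglycerate mutase, differed by 0.10, 95% interval -0.11 to 0.32.

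All 4 genes that set the flux or export its product were called. Pfkfb4, one of the bifunctional enzymes that make fructose 2,6-bisphosphate, scored 0.71, 0.30, 1.01 and 0.22 in controls and 1.03, 3.09, 2.90 and 3.33 in treated animals on probe set 1368719_at, with the first treated animal just above the highest control. It rose on both of its probe sets, by 2.03 ± 0.51 and 1.97 ± 0.44, the first of which missed the threshold without animal 36. Pfkfb3, the other such enzyme on the list, was called on 1 of 3 probe sets, 1369794_a_at, with controls at 0.43, 1.36, 0.54 and 0.12 and treated animals at 0.92, 3.35, 4.73 and 1.06. The groups overlapped, the difference was 1.90 ± 0.56 (adjusted p = 0.034), and leaving out any 1 of 5 animals ended the call. Its probe set 1390391_at differed by 2.29 (adjusted p = 0.056) and 1397082_at by -0.19 (adjusted p = 0.77). Slc16a3, the lactate exporter MCT4, scored -0.072, -0.08, -0.24 and -0.086 in controls and 3.03, 0.76, 2.92 and 0.91 in treated animals. All 4 treated animals were higher than every control, in a higher and a lower pair, and the difference was 2.02 ± 0.33 (adjusted p = 9.9e-05). Pdk1, the kinase that shuts pyruvate out of the mitochondrial citric acid cycle, rose on both probe sets, by 1.18 ± 0.23 and 0.72 ± 0.16.

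The oxygen sensors Egln3 and Egln1 are prolyl hydroxylases that act on HIF and are HIF targets themselves. Egln3 scored -0.85, -0.27, -0.88 and 0.0062 in controls and 3.91, 2.53, 2.80 and 0.099 in treated animals, of which the last was close to the highest control, and the difference was 2.83 ± 0.49 (adjusted p = 0.0002). Egln1 was called on probe set 1389207_at, with controls of 0.14, 0.021, 0.093 and 0.24 and treated values of 3.39, 0.80, 0.99 and 0.80. One treated animal carried much of that difference of 1.37 ± 0.28, while the others were also above every control. Its other probe set, 1375262_at, gave a difference of 0.46, 95% interval -0.71 to 1.63, and its controls split between values near 0 and values under -2. Hif1a, the oxygen-regulated HIF subunit, differed by 0.64 ± 0.22 (adjusted p = 0.074), and Siah2, a ubiquitin ligase for the hydroxylases, by 0.087, 95% interval -0.18 to 0.35.

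The mitochondrial proteins Bnip3, which marks mitochondria for removal, and Higd1a, a hypoxia-inducible protein of the respiratory chain, rose. Bnip3 scored -0.0009, 0.51, -0.059 and 0.42 in controls and 5.41, 2.43, 1.81 and 2.05 in treated animals (difference 2.71 ± 0.39, adjusted p = 1.9e-05). Higd1a scored 0.13, 0.35, 0.90 and 0.35 against 4.69, 2.77, 2.51 and 3.58 on probe set 1374105_at, a difference of 2.95 ± 0.32 (adjusted p = 8.8e-08). Its second probe set, 1370062_at, differed by 1.77 ± 0.25, and on both the lowest treated animal was above the highest control. Bnip3l, a relative of Bnip3, did not pass the test on either probe set, at 0.096 and -0.12.

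Of the remaining HIF targets, Ankrd37, an ankyrin repeat gene, scored -0.21, -0.68, -0.74 and 0.21 in controls and 3.97, 0.80, 1.37 and 2.81 in treated animals, a difference of 2.59 ± 0.40 (adjusted p = 4.4e-05). P4ha1 and P4ha2 are catalytic subunits of collagen prolyl hydroxylase. P4ha1 rose by 1.90 ± 0.31 (adjusted p = 9.9e-05) and P4ha2 by 1.31 ± 0.21 on 1 of 2 probe sets. Ndrg1, a stress-responsive gene, rose on both probe sets, by 0.94 ± 0.16 and 0.83 ± 0.13, and the histone demethylase Kdm3a rose by 0.89 ± 0.19. The vasodilator peptide Adm did not pass the test: controls scored 3.09, 1.58, 0.66 and 1.84 and treated animals 3.97, 0.94, 2.03 and 2.14, which overlapped (difference 0.48, 95% interval -0.49 to 1.45). The other targets not called were Ddit4 (-0.41), Mxi1 (0.24 and -0.27), Car9 (0.31) and Epo (0.65). Ddit4 varied widely among untreated adrenals, with control scores of 1.24, 4.13, -0.25 and -0.30.

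**Figure D2:**
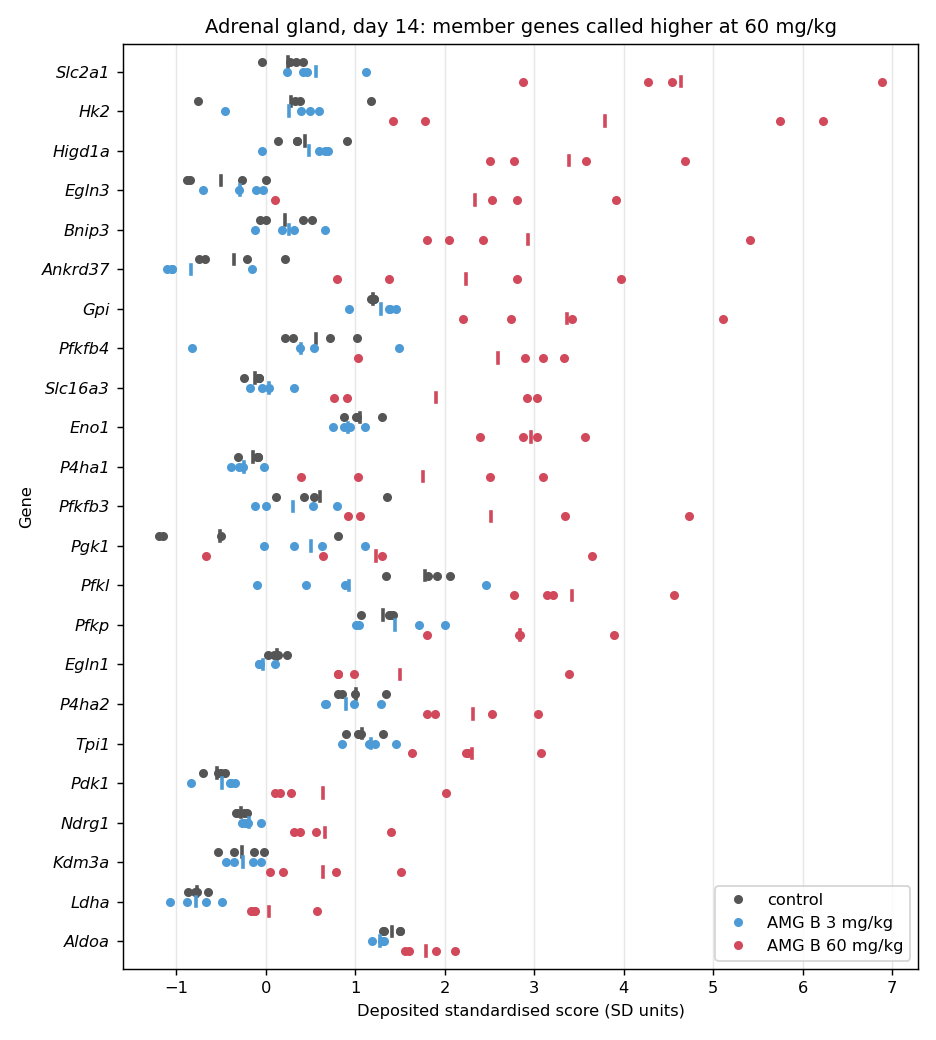
Deposited scores (x axis, SD units) of the 23 called genes (y axis, called probe set with the largest difference) in adrenal gland on day 14. Points are animals, 4 in each dose, and short bars are means; control and 3 mg/kg animals overlap in these probe sets, and 60 mg/kg animals lie to the right of controls except in Pgk1 and Pfkfb3, where they overlap.

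The spread bears on how firmly these calls can be read. The median SD over the 27 called probe sets was 0.180 in controls, 0.252 at 3 mg/kg and 0.918 at 60 mg/kg. The fit, however, shares 1 estimate of the spread among all adrenal groups. The standard errors, intervals and p-values above rest on that shared estimate, so they do not reflect the wider spread at 60 mg/kg. A fit of the 8 compared animals alone kept the differences but called 2 of the genes, Eno1 and Higd1a, and 125 of all 31042 probe sets. In that fit 29 of the 48 member probe sets had an unadjusted p under 0.05, all of them higher. The share over all probe sets at that threshold is not given for this fit, so the count has no background beside it.

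The 4 treated animals did not rank alike in every gene. Animal 33 was the highest in 21 of the 27 called probe sets, among them Slc2a1, Bnip3, Gpi and Egln1, and the lowest in 4, those of Pfkfb3, Pfkfb4 and Pgk1. On Pfkfb3 probe set 1369794_a_at it scored 0.92 while animals 34 and 35 scored 3.35 and 4.73. Hk2 was high in animals 33 and 36, and Slc16a3 and P4ha1 were high in animals 33 and 35. The mean over all 48 member probe sets was 2.00 in animal 33 and 1.37, 1.46 and 1.32 in animals 34, 35 and 36, against 0.288 to 0.454 in controls. Without animal 33, 22 of the member genes were called.

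**Figure D3:**
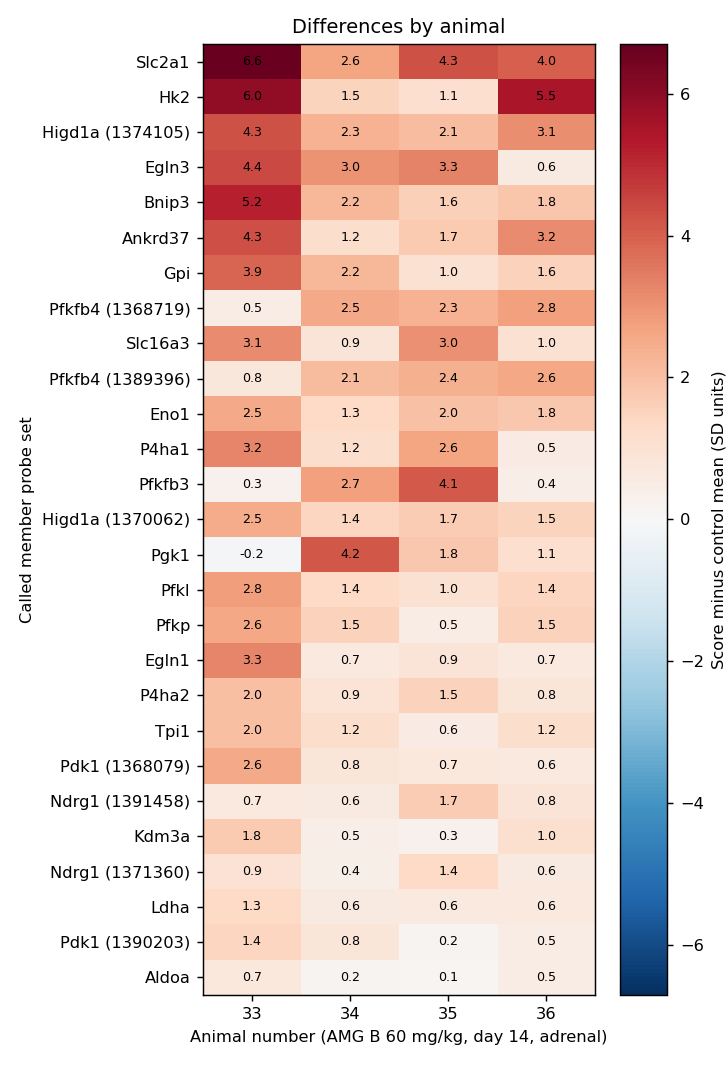
Difference of each treated adrenal (columns, animal number) from the mean of the 4 controls for the 27 called member probe sets (rows), in SD units of the score, with the value in each cell and colour from blue (lower) to red (higher). Animal 33 has the highest value in 21 rows and the lowest in the rows of Pfkfb3, Pfkfb4 and Pgk1 (1368906).

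The 250 bases before and 50 bases after the transcription start were searched in RefSeq's rat assembly GRCr8. The search was for ACGTG and GCGTG, cores of the hypoxia response element, on both strands. An ACGTG and a CACGT that overlap, as in CACGTG, were counted as 1 stretch. Promoters were found for 32 of the 36 genes, all but Slc2a3, Pgk1, Bnip3l and Ndrg1. At least 1 match was present in 16 of 21 genes that rose in the adrenal gland, 76.2%, in 8 of 9 measured genes that did not pass the test, 88.9%, and in 44.6% of all 27457 genes with a promoter. Matches to 2 or more stretches occurred in 12 of the 21, 57.1%, in 4 of the 9, 44.4%, and in 17.7% of all genes. Genes that rose and genes that did not pass the test thus both held the letters often. The genes were listed for their part in hypoxia and glycolysis. A share above that of all genes therefore cannot be tied to the adrenal rise. Where a gene had several starts, a match in any of them counted. The promoters of Slc2a1, Ankrd37, Bnip3 and Ldha, which held 4, 4, 3 and 5 stretches, are shown as examples from the transporter, the targets, the mitochondrial genes and the lactate enzyme that rose, and that of Egln3 because it rose with 0 matches in this window. Capitals mark the matches on either strand, and each sequence runs 5′ to 3′ along its gene.
Slc2a1 (GRCr8 chr5:138002272-138002571, plus strand): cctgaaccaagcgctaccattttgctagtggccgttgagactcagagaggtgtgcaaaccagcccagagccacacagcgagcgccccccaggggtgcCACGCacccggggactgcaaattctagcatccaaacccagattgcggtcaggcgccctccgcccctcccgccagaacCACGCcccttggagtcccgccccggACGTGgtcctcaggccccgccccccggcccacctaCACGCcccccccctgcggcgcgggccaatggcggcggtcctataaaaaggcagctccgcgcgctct
Ankrd37 (GRCr8 chr16:53001257-53001556, plus strand): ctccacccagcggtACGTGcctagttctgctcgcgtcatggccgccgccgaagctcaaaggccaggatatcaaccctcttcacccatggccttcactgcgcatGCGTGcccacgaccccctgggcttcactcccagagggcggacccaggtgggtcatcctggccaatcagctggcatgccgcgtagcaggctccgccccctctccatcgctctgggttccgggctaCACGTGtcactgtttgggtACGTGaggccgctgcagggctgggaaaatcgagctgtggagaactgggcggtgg
Bnip3 (GRCr8 chr1:203154913-203155212, minus strand): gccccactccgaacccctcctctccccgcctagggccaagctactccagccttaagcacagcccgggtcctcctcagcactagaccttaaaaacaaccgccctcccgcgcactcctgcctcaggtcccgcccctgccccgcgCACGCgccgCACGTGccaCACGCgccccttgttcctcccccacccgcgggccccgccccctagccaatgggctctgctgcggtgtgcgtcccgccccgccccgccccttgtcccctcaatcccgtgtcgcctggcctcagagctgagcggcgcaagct
Ldha (GRCr8 chr1:106507842-106508141, plus strand): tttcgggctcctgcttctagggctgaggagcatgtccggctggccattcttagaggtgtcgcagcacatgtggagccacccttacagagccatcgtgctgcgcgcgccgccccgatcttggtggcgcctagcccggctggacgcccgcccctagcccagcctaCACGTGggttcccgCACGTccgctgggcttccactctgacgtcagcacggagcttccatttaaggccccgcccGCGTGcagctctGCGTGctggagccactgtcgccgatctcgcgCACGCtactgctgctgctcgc
Egln3 (GRCr8 chr6:77410966-77411265, minus strand): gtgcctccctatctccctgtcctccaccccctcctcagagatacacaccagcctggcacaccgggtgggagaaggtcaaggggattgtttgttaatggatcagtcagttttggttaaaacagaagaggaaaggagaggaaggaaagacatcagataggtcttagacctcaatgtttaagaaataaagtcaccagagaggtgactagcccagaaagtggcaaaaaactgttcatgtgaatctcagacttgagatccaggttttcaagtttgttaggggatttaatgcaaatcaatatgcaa
A match is a description of the letters, and its absence in Egln3 says only that they do not occur in these 300 bases.

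Calls among the adrenal members came on day 14. After 1 day of AMG B at 60 mg/kg 0 of 48 member probe sets were called, against 0.335% of all probe sets, and after 4 days again 0, against 0.889%. At an unadjusted p under 0.05 there were 3 and 8 of 48 member probe sets, against 8.92% and 11.4% of all probe sets. Without animal 21, 2 genes were called on day 4. The glycolytic enzymes were on the positive side on day 4 in 11 of 11 probe sets, with a median difference of 0.28 against 0.014 for all probe sets, and 1 of the 11 had an unadjusted p under 0.05. The 5 oxygen-sensing probe sets had differences below 0, with a median of -0.18. Slc2a1 scored -0.51, -0.28, -0.0014 and -0.42 on day 1 and 0.14, 0.46, 0.16 and 0.07 on day 4, and its controls -0.42, -0.22, -0.42 and -0.49 and 0.22, -0.087, 0.087 and -0.33. On day 1 the Slc2a1 values of treated animals reached past both ends of the control range, and on day 4 the highest treated animal lay above the controls. Egln3 stayed within the range of its controls, with differences of -0.24, 95% interval -1.22 to 0.75 on day 1 and -0.29, 95% interval -1.27 to 0.69 on day 4. The smallest p-values belonged on day 1 to Siah2 (-0.33 ± 0.13, adjusted p = 0.39) and Hif1a (0.45 ± 0.22, adjusted p = 0.55). On day 4 they belonged to Car9, a carbonic anhydrase (0.48 ± 0.13, adjusted p = 0.065), and Eno1 (0.45 ± 0.17, adjusted p = 0.27).

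The day 14 effect was tested against the day 1 effect, each against its own controls. It was larger for 17 of the 48 member probe sets, 16 genes, and smaller for 0, where 1.16% of all probe sets were called. The leading ones were Slc2a1 (4.31 ± 0.54), Hk2 (3.33 ± 0.85), Higd1a (3.25 ± 0.45), Egln3 (3.07 ± 0.69) and Pfkfb4 (2.93 ± 0.72). The calls of Hk2 and Pfkfb4 were fragile, since leaving out any 1 of 13 and of 9 of the 16 animals ended them. The number of genes fell to 9 or 10 when any 1 of animals 1, 2, 4, 11, 25, 26, 27 or 28 was left out, and to 2 in a fit of the compared groups alone. The day 4 effect differed from the day 1 effect for 0 member probe sets (0.00644% of all).

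Untreated adrenals also differed between days. Day 14 controls differed from day 1 controls in 25.3% of all probe sets and in 11 of the 48 members. Egln1 (1375262_at), Pfkfb3 (1397082_at) and Epo were lower, with differences of -2.54, -1.84 and -0.79, and Pfkl, Slc2a3 (1387707_at), Mxi1 (1372093_at), Car9, Hif1a, Bnip3l (1367898_at), Kdm3a and Pgam1 were higher by 0.31 to 1.30. Day 4 controls differed from day 1 controls in 0 probe sets. Whether day 14 adrenal arrays differ through time on study or through when and how they were processed cannot be told apart. Leaving out any 1 of animals 1, 3, 25 and 27 reduced the number of genes from 11 to 6 or 7. Slc2a1 was not among the 11, with a difference of 0.63, 95% interval -0.14 to 1.40. A fit of the control groups of these days alone called 13 members, which include Slc2a1, Gpi, Pfkp and Ndrg1, genes that were also higher with treatment on day 14.

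**Figure D4:**
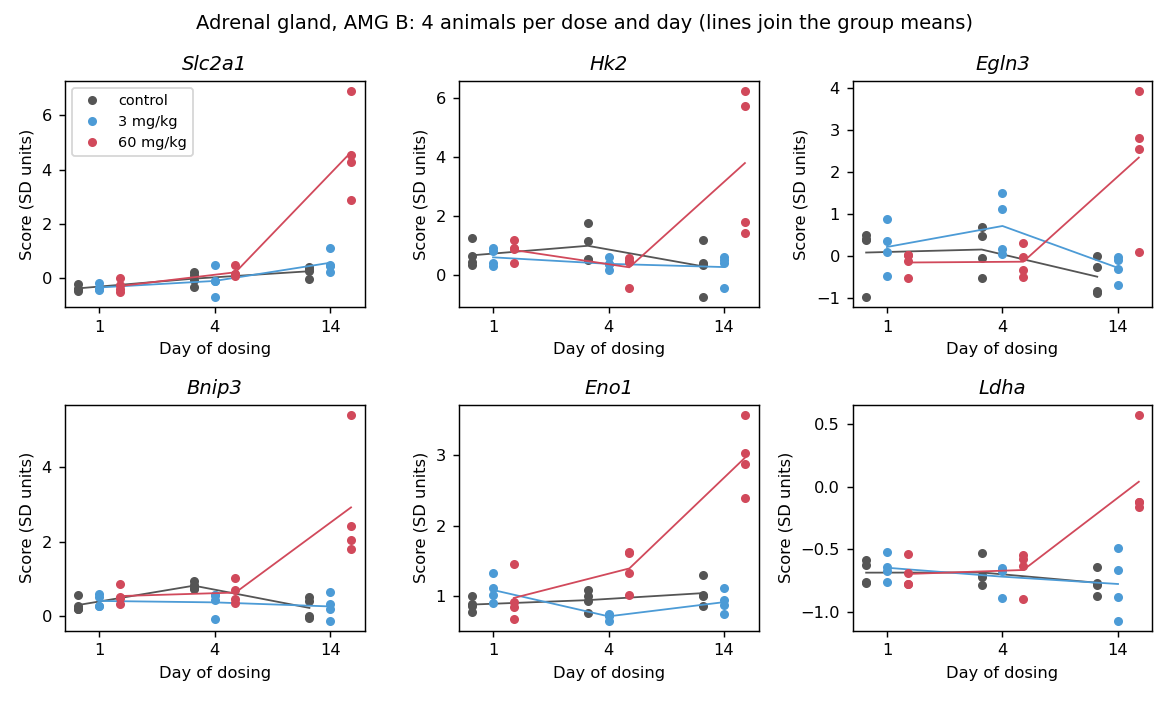
Scores (y axis, SD units) of Slc2a1, Hk2, Egln3, Bnip3, Eno1 and Ldha in adrenal gland after 1, 4 and 14 days (x axis) of AMG B at 0 (dark grey), 3 (blue) or 60 mg/kg (red). Points are the 4 animals of a group and lines join group means; on day 14 every red point lies above every grey point in these genes, and Slc2a1 reaches 2.88 to 6.89.

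The lower dose gave no call among the members in the adrenal gland. At 3 mg/kg 0 of 48 member probe sets were called on day 1 (0.00644% of all probe sets), day 4 (0.0354%) and day 14 (0.00322%). On day 14 Slc2a1 scored 1.11, 0.42, 0.23 and 0.46, and its difference from controls was 0.31, 95% interval -0.46 to 1.08. The 60 mg/kg animals of day 14 were also compared with the 3 mg/kg animals, a comparison that uses the same treated arrays: 29 member probe sets, 24 genes, were higher and 0 lower, against 4.5% of all probe sets. Car9 passed here, at 0.59 ± 0.13 (adjusted p = 0.0045), and not against the controls. A fit of these groups alone called 0 member genes and 0 of all probe sets. In it 30 member probe sets had an unadjusted p under 0.05, all higher, again without the share over all probe sets beside them. The smallest p-values at 3 mg/kg were those of Pgam1 and Slc2a3 on day 1 (0.28 and 0.90), Bnip3l and Pfkfb3 on day 4 (0.38 and -1.33), and Pfkl and Pgk1 on day 14 (-0.86 and -0.53), all of them with an adjusted p of 0.66 or more.

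AMG A left the adrenal members without a call. On day 14, 0 of 48 member probe sets and 0% of all probe sets were called at 3 mg/kg, and likewise at 30 mg/kg (0%). At 30 mg/kg 6 member probe sets had an unadjusted p under 0.05, against 5.8% of all probe sets. The members' median difference at 30 mg/kg was 0.091. Slc2a1 scored 0.10, 0.35, 0.095 and 0.60 in the AMG A controls and 0.24, 0.49, -0.026 and 0.031 at 30 mg/kg, a difference of -0.10, 95% interval -0.87 to 0.67. Egln3 differed by 0.66, 95% interval -0.32 to 1.64, Bnip3 by 0.23, 95% interval -0.56 to 1.02, Ldha by 0.11, 95% interval -0.13 to 0.34 and Adm by -0.15, 95% interval -1.13 to 0.82. The top doses of the compounds differ, 30 and 60 mg/kg, so these values stand beside those of AMG B without a comparison. At the shared dose of 3 mg/kg the compounds' effects differed for 0 member probe sets in adrenal gland (0.00644% of all) and 0 in pancreas (0%). For Slc2a1 the AMG A effect minus the AMG B effect was -0.63, 95% interval -1.72 to 0.46 in adrenal gland and 0.51, 95% interval -1.16 to 2.19 in pancreas. The smallest p-values in AMG A adrenals belonged to Hk1 (-0.74) and Pfkfb3 (-0.52) at 3 mg/kg and to Siah2 (-0.42) and Ddit4 (-2.37) at 30 mg/kg, with an adjusted p of 0.59 or more.

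Other genes of the same pathways were read from a pair of lists. Of 28 further hypoxia genes measured in the larger table, 12 rose and 1 fell in adrenal gland at 60 mg/kg on day 14. By probe set, 13 were higher and 1 lower of 40, against 5.96% of all probe sets called in either direction. The median difference over the 40 was 0.39. Hmox1, which breaks down haem, rose by 4.63 ± 0.75, the transferrin receptor Tfrc by 3.50 ± 0.61 on the first of 2 probe sets, the matrix cross-linking oxidase Loxl2 by 3.11 ± 0.74, and Vegfa, the vessel growth factor, by 1.38 ± 0.35. Vhl, the ubiquitin ligase subunit that removes hydroxylated HIF, fell by 0.49. Of 17 further enzymes of glucose and pyruvate metabolism 4 rose and 0 fell, at a median of 0.097 over 26 probe sets. By probe set, 5 of the 26 were higher, against 3.12% of all probe sets. The 4 enzymes were the enolase Eno2 (3.63 ± 0.61), the aldolase Aldoc (3.22 ± 0.50), the pyruvate dehydrogenase subunit Pdha1 (1.04 ± 0.31 and 1.09 ± 0.32) and the phosphoglucomutase Pgm1 (0.18 ± 0.056). On day 4 only Epas1, which encodes HIF-2 alpha, was called from either list, and it was lower.

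Cell type markers moved in the same adrenals, where the test on day 14 called 5.96% of all probe sets in either direction. Of 13 endothelial probe sets 4 were lower on day 14, those of Tek (-2.70 ± 0.24), Tie1 (-2.74 ± 0.46), Kdr (-2.63 ± 0.26) and Emcn (-1.57 ± 0.21), receptors and a surface protein of vessel cells. The mean endothelial score was 0.448 to 0.843 in controls and -0.459 to 0.506 in treated animals, with animal 35 the highest. Endothelial probe sets were already lower on day 1, 4 of 13, where 0.335% of all probe sets were called. On day 4, 6 of 13 were lower, where 0.889% of all were called. On both days 0 members were called. Of 7 macrophage probe sets 3 were lower, and their mean score was -0.679 to -0.462 in controls and -1.14 to -0.188 in treated animals. Of 10 cell cycle probe sets 4 were higher, with means of -0.0821 to 0.595 in controls and 0.824 to 2.79 in treated animals. Animal 35 had a neutrophil mean of 4.82 over 4 probe sets against -0.0275 to 0.346 in the other treated animals, and the lowest adrenal medulla mean, 0.246 against 1.66 to 2.44. Its adipocyte mean was 2.00, against -0.443 to 0.572 in the others. None of the 6 adrenal cortex or 6 adrenal medulla probe sets was called. The part of these shifts in the rise of the glycolysis genes was not tested. Without animal 35, 21 of the member genes were called.

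In liver few of these genes moved. After 14 days of AMG B at 60 mg/kg 2 member probe sets were higher and 1 lower of 48, 6.25% against 5.66% of all probe sets, so the share called was near the background, and the members' median difference was 0.045. Egln3 scored 0.30, 0.25, 0.27 and -0.50 in controls, 1.65, 0.75, 0.41 and 0.86 at 3 mg/kg and 2.93, 2.38, 1.17 and 1.67 at 60 mg/kg. The 60 mg/kg animals were all above the controls, by 1.95 ± 0.39 (adjusted p = 0.0029). Bnip3 scored 0.14, 0.44, -0.56 and -0.036 in controls and 1.37, 0.51, 1.48 and 1.09 at 60 mg/kg (difference 1.12 ± 0.29, adjusted p = 0.019), and that call was lost without animal 27, 33 or 35, with an adjusted p of up to 0.0743. Pgk1 was lower on probe set 1387361_s_at, with a difference of -0.37 ± 0.10 (adjusted p = 0.029), which was lost without animal 25, 26, 27, 34 or 35, and its probe set 1368906_at differed by 0.73 in the other direction without passing the test. Slc2a1 differed by 0.36, 95% interval -0.048 to 0.78, Ldha by -0.27, 95% interval -0.54 to 0.0075 and Adm by -0.15, 95% interval -0.40 to 0.11. Without animal 27 or 35, 1 member gene was called in all, and a fit of the compared groups alone called 0. Against 3 mg/kg, Bnip3 was the only member called, at 1.33 ± 0.29 (3.79% of all probe sets), and 2 or 3 genes were called without animal 31, 33 or 36.

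In liver at 60 mg/kg of AMG B on day 14, 2 of 40 probe sets of the further hypoxia genes were called. Of 26 probe sets of the further glucose genes 3 were called. The same test called 5.66% of all probe sets, so the hypoxia share was near the background. The called genes were all lower. Among the hypoxia genes they were Plod1 and Angptl4 (differences -0.63 and -2.17). Among the enzymes and transporters of glucose they were Bpgm (-0.65), Gckr (-0.82) and the lactate transporter Slc16a1 (-0.89). Of 7 macrophage probe sets 5 were lower in the same livers, with mean scores of 0.719 to 1.69 in controls and -0.665 to 1.21 in treated animals. Of 13 endothelial probe sets 5 were lower, with means of -0.228 to 0.575 and -0.363 to -0.0806. Of 6 erythroid probe sets 2 were lower, with means of 0.71 to 1.35 and -0.65 to 0.21. Their part in the liver values was not tested.

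No other liver group of AMG B had a member called, except that 1 gene was called at 60 mg/kg on day 4 without animal 22 or 24. The shares over all probe sets were 0.00966% at 3 mg/kg and 0.0548% at 60 mg/kg on day 1, 0.0226% and 0.68% on day 4, and 0% at 3 mg/kg on day 14. A probe set of Pfkfb3, 1397082_at, had 1 of the 2 smallest p-values in all 4 groups of days 1 and 4, with differences of -0.95, -0.99, -0.90 and -1.16, none of which passed. Beside it stood a second Pfkfb3 probe set (-0.55), Bnip3l (-0.26) and Pdk1 (0.40 and 0.59, adjusted p = 0.065 for the latter). On day 14 at 3 mg/kg the smallest belonged to Pgk1 (-0.57) and Pfkfb4 (-0.31). The day 14 effect of 60 mg/kg did not pass the test against the day 1 effect for any member (0.193% of all probe sets).

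Liver under AMG A, fitted within the smaller table, had 1 call of 45 member probe sets. Siah2 scored -0.75, -0.94, -0.83 and -0.72 in controls, -0.78, -0.76, -0.69 and -0.62 at 3 mg/kg and -0.22, 0.27, -0.054 and -0.0039 at 30 mg/kg on day 14. The 30 mg/kg animals were above all others, by 0.81 ± 0.13 against controls (adjusted p = 0.0039) and by 0.71 ± 0.13 against 3 mg/kg, where 0.353% and 0.063% of all probe sets were called. The first call held without each of the 8 animals in turn but not in a fit of the compared groups alone. The second was lost without animal 3021, 3022, 3024, 3034 or 3036. Slc2a1 differed by 0.21, 95% interval -0.033 to 0.46, Egln3 by 0.17, 95% interval -0.27 to 0.62, Bnip3 by 0.24, 95% interval -0.18 to 0.66, Ldha by -0.028, 95% interval -0.35 to 0.29 and Adm by -0.11, 95% interval -0.22 to 0.0016 at 30 mg/kg, and Pgk1 on 1368906_at by -1.64 ± 0.40 (adjusted p = 0.068). In the remaining AMG A liver groups 0 of 45 were called, against 0.0378% and 0.366% of all probe sets at 3 and 30 mg/kg on day 1, 0.0126% and 0.0693% on day 4, and 0.0063% at 3 mg/kg on day 14. The smallest p-values in those groups were of Pfkfb3 and Ankrd37, Higd1a and Pfkfb3, Ldha and Pfkl, Pdk1 and Higd1a, and Slc2a3 and Pgk1, in the same order, with an adjusted p of 0.12 or more. The day 14 effect differed from the day 1 effect for 0 members and 0% of all probe sets.

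In pancreas, AMG B at 60 mg/kg for 14 days gave 3 member calls of 48, 6.25%. The same test called 9.88% of all probe sets, so the members' share was not above the background. The members' median difference was 0.27 and that of all probe sets was -0.017. Every treated animal lay above every control in 10 of the 48 member probe sets and below in 3. Over all 31042 probe sets these counts were 2597 and 2955. Hk1 on probe set 1386929_at scored 0.51, 0.02, 1.32 and 0.16 in controls, 0.75, 1.39, 1.15 and 1.09 at 3 mg/kg and 2.02, 3.91, 4.28 and 4.52 at 60 mg/kg, with the last group above all others (difference from controls 3.18 ± 0.44, adjusted p = 0.00037). Its other probe set, 1398725_at, went the other way without passing the test, at -2.17 ± 0.77 (adjusted p = 0.079), so the probe sets of Hk1 disagree. Mxi1, a MYC antagonist, scored -1.88, -1.12, -1.84 and -2.25 in controls and 0.29, -0.011, 1.32 and 0.65 in treated animals on 1368963_at (difference 2.34 ± 0.62, adjusted p = 0.022), a call lost without animal 28 or 35. On 1372093_at its groups overlapped, at 0.022, 95% interval -1.36 to 1.41. Bnip3l was lower on 1367898_at, with a difference of -0.98 ± 0.29 (adjusted p = 0.04). That call was lost under array centring (adjusted p = 0.054), under quantile normalization (0.113) and without any 1 of 7 of the 8 animals. Without animal 28, 1 member gene was called in all.

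The genes that led in the adrenal gland did not lead in pancreas. Slc2a1 differed by -1.06, 95% interval -2.24 to 0.13, Egln3 by 1.20, 95% interval -0.91 to 3.32, Bnip3 by 0.65, 95% interval -0.49 to 1.79, Ldha by 0.37, 95% interval 0.038 to 0.70 and Adm by -0.73, 95% interval -1.90 to 0.44, and the probe sets of Pgk1 by -1.40, 0.31 and 0.16. Against 3 mg/kg, Hk1 (1386929_at) was higher by 2.59 ± 0.44 and Egln1 (1375262_at) was lower (difference -1.72 ± 0.47), with 3.68% of all probe sets called. When any 1 of animals 29, 30, 32, 35 and 36 was left out 1 gene was called, and a fit of these groups alone called 0. Of the further hypoxia genes Stc2, Vegfa on 2 probe sets, Gys1 and Fgf21 were higher at 60 mg/kg, with differences of 1.81, 1.05 and 1.12, 2.58 and 2.61. The same pancreases had all 8 acinar probe sets lower, with mean scores of 2.32 to 3.13 in controls and 1.54 to 1.73 in treated animals. They also had 5 of 10 cell cycle probe sets higher, with means of -0.388 to 0.445 and -0.163 to 3.05. The same test called 9.88% of all probe sets. Duct markers had means of 0.926 to 1.22 in controls and 0.989, 2.57, 4.87 and 1.56 in treated animals 33 to 36. Of 5 duct probe sets 0 were called and 4 had an unadjusted p under 0.05, against 25.9% of all probe sets. Skeletal muscle markers had a mean of 3.21 in animal 36 and of -0.488 to -0.156 in the other treated animals. The part of these shifts in the member values was not tested.

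No other pancreas group had a member called. The share of all probe sets was 0.0226% at 3 mg/kg of AMG B, and 0.00322% at 3 mg/kg and 0.00322% at 30 mg/kg of AMG A. The smallest p-values belonged to Slc2a1 (-1.64 ± 0.57) and Higd1a (0.85 ± 0.36) for AMG B, to Pdk1 (1.56 ± 0.65) and Pfkl (-0.66 ± 0.33) for AMG A at 3 mg/kg, and to Higd1a (0.83 ± 0.36) and Bnip3 (1.21 ± 0.54) at 30 mg/kg. At 30 mg/kg of AMG A Slc2a1 differed by -0.56, 95% interval -1.74 to 0.62, Egln3 by -0.52, 95% interval -2.63 to 1.59, Ldha by -0.13, 95% interval -0.46 to 0.20 and Adm by -0.21, 95% interval -1.38 to 0.96.

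Whether the effect of AMG B at 60 mg/kg on day 14 differed between tissues was tested directly, within 1 table and with tissues of the same animals. The adrenal effect exceeded the liver effect for 6 of 48 member probe sets, and the reverse held for 0 (1.04% of all probe sets). They were Slc2a1 (4.03 ± 0.69), Higd1a (2.35 ± 0.48), Pfkfb4 (2.17 ± 0.55), Eno1 (1.84 ± 0.31), Pfkp (1.57 ± 0.36) and Ldha (1.08). The number of genes fell to 2 or 3 without animal 25, 26, 27, 28 or 36. Slc2a1 and Eno1 passed the test without each of the 8 adrenal donors in turn, while Pfkfb4 and Pfkp each lost the call in 7 of the 8 omissions and Higd1a in 3. The adrenal effect of Egln3 and Bnip3, which were called in both tissues, did not pass this test, at 0.88, 95% interval -1.69 to 3.44 and 1.59, 95% interval -0.019 to 3.20.

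Against pancreas, 9 member probe sets had a larger adrenal effect and 2 a smaller one (9.55% of all probe sets). Larger were Slc2a1 (5.45 ± 0.69), Hk2 (4.19 ± 1.03), P4ha1 (3.04 ± 0.57), Higd1a (2.80 ± 0.48) and Hk1 on 1398725_at (2.71 ± 0.69), with Ndrg1 on both probe sets, Pfkp and Eno1 behind them. Hk2 missed the threshold without animal 36. Smaller were Hk1 on 1386929_at (-2.87 ± 0.46) and Mxi1 on 1368963_at (-2.10 ± 0.53), the latter not without animal 35. Between pancreas and liver the effect differed for Hk1, by 3.20 and -2.61 on its 2 probe sets, and for Mxi1, by 2.27 (9.31% of all probe sets). The second Hk1 value missed the threshold without animal 33.

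**Figure D5:**
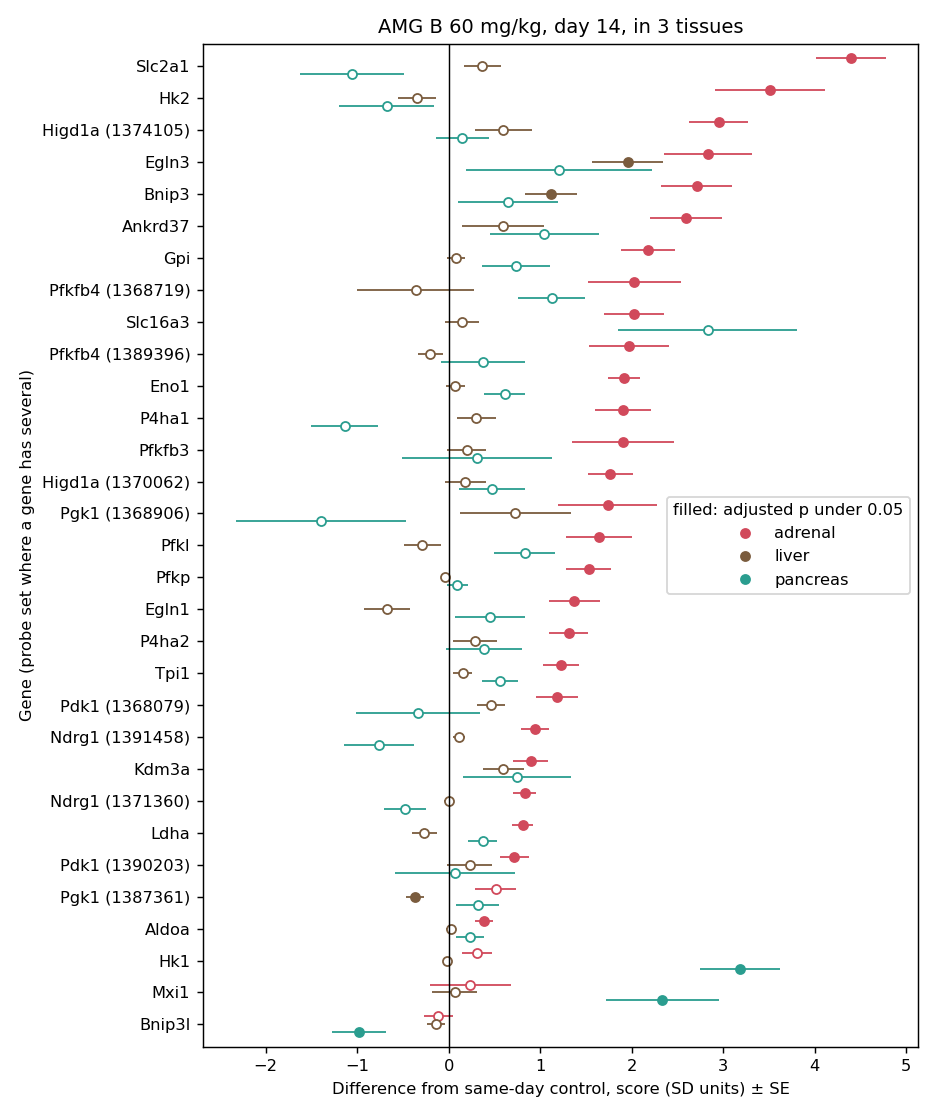
Difference from same-day controls (x axis, score in SD units, with bars of 1 standard error) after 14 days of AMG B at 60 mg/kg, in adrenal gland (red), liver (brown) and pancreas (teal), for every member probe set called in at least 1 tissue (y axis). Filled points have an adjusted p under 0.05; 27 are filled for adrenal gland and 3 each for liver and pancreas.

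Untreated tissues differ in these genes to begin with. In day 14 controls of the AMG B study 23 of 48 member probe sets differed between adrenal gland and liver (43.6% of all probe sets), 23 between pancreas and liver (54.2%) and 31 between adrenal gland and pancreas (57.6%), shares that are near the background in each case. Aldoa was highest in adrenal gland and lowest in liver, at 2.14 above liver and 1.62 above pancreas, each step past the test. Tpi1 ran from adrenal gland through liver to pancreas, 1.19 above liver and 2.81 above pancreas, also past the test at each step. Ldha was highest in liver, with differences from liver of -1.14 in adrenal gland and -1.96 in pancreas. Slc2a1 was highest in pancreas, 1.48 above liver, and adrenal gland minus pancreas was -1.28. Its levels in adrenal gland and liver did not pass the test (difference 0.20, 95% interval -0.79 to 1.19). Adm was 2.11 higher in adrenal gland than in liver, and adrenal gland minus pancreas was -3.12 for Epo. Higd1a (1370062_at), Siah2 and Pfkfb3 (1397082_at) were lower in adrenal gland than in liver, with differences of -1.87, -2.10 and -2.24.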

How the data were processed

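Liver, adrenal gland and pancreas of dosed and undosed rats were measured on 1-colour expression arrays, 1 array per animal and tissue, from 5 ug of total RNA per the labels' protocols. The deposited values are scores: each probe set has a mean near 0 and an SD near 1 over the arrays of both tables that carry it, as computed from the files, and how the authors summarised, normalized and scaled the arrays is not given in the sources used here. Scores include negative values and cannot be logged, so no pseudocount or filter on low values was applied.

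Probe sets were named only where the platform annotation gave 1 symbol. The name was RefSeq's symbol for the annotated gene identifier where there was one, and otherwise the platform symbol. Linear models were fitted to all probe sets of a table with limma 3.58.1 in R 4.3.3 (lmFit, contrasts.fit and eBayes with trend), separately for liver under AMG A, liver under AMG B, adrenal gland and pancreas, and jointly over tissues of day 14 for differences between tissues. Adjusted p-values are Benjamini-Hochberg within a comparison, with a threshold of 0.05. The fits were tested on simulated data first. The settings and outcome of that simulation are not given here. It therefore cannot show whether calls hold where groups differ in spread, as the adrenal groups did.

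The members and the lists of other genes and markers were chosen with earlier results of these data known. Named are, in a dose comparison, up to 10 members each way by size among those past the threshold, or the 2 smallest p-values where none passed. Up to 5 each way are named in tissue and day comparisons, up to 4 from each further list, and Slc2a1, Egln3, Bnip3, Pgk1, Ldha and Adm throughout. Further members are named with their values so that every measured gene is accounted for in the adrenal gland.

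Tissues of 1 animal are paired through the animal number in the labels. Residuals of the same animal correlated little across tissues: the median correlation was 0.042 for liver and adrenal gland, 0.015 for liver and pancreas and 0.029 for adrenal gland and pancreas, against -0.011, -0.0059 and -0.0092 for other animals of the same condition. Alternatives were array centring, quantile normalization, 1 probe set per gene, only probe sets with 1 symbol, eBayes without trend, a fit of the compared groups alone, omission of each animal in turn, and the animal as a block.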

Additional observations from a re-analysis of the deposited data

Results flagged for a closer look

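Single animals stood far from the other 3 of their group in 7 of 68 groups examined, and about 1 in 20 groups would be picked out by chance. In adrenal gland at 60 mg/kg of AMG B on day 14, animal 33 stood above the others in Ldha (0.57), Pdk1 (1368079_at, 2.01) and Egln1 (1389207_at, 3.39). Among adrenal controls of that day, animal 27 was low in Slc16a3 (-0.24), animal 25 in P4ha1 (-0.31) and animal 26 in Pfkp (1.06). In liver controls animal 28 was low in Egln3 (-0.50).

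The effect of AMG B at 60 mg/kg differed between days or tissues, by a test of the difference itself, for the following members. In adrenal gland the day 14 effect exceeded the day 1 effect by 4.31 for Slc2a1, 3.33 for Hk2, 3.25 for Higd1a, 3.07 for Egln3 and 2.93 for Pfkfb4. On day 14 the adrenal effect exceeded the liver effect by 4.03 for Slc2a1, 2.35 for Higd1a, 2.17 for Pfkfb4, 1.84 for Eno1 and 1.57 for Pfkp. The pancreas effect minus the liver effect was 3.20 and -2.61 for the probe sets of Hk1 (1386929_at and 1398725_at) and 2.27 for Mxi1. The adrenal effect minus the pancreas effect was 5.45 for Slc2a1, 4.19 for Hk2, 3.04 for P4ha1, 2.80 for Higd1a, 2.71 and -2.87 for Hk1 (1398725_at and 1386929_at) and -2.10 for Mxi1.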

How the results depend on the processing

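Fitting only the compared groups changed the number of member genes called the most: from 23 to 2 in adrenal gland at 60 mg/kg of AMG B on day 14, from 24 to 0 against 3 mg/kg, from 16 to 2 for the day 14 effect minus the day 1 effect, from 3 to 0 in liver under AMG B at 60 mg/kg, from 1 to 0 in liver under AMG A at 30 mg/kg, and to 0 in the comparisons of the high with the low dose in liver (AMG A and AMG B) and pancreas. That fit has fewer samples and its own estimate of the spread. In it 35 of 39 named calls missed the threshold with their direction kept. Quantile normalization called 1 gene in adrenal gland on day 4, against 0, and ended 6 of 54 named calls. Array centring called 2 genes in liver at 60 against 3 mg/kg, against 1. One probe set per gene called 1 gene in liver at 60 mg/kg on day 4, against 0, as did eBayes without trend. One probe set per gene also called 3 in liver at 60 against 3 mg/kg, as did only probe sets with 1 symbol, 1 in pancreas at 60 against 3 mg/kg and 7, against 11, between adrenal controls of days 14 and 1. Leaving out 1 animal gave 20 to 23 genes in adrenal gland at 60 mg/kg on day 14, 23 to 25 against 3 mg/kg, and 9 to 18 for the day difference. It gave 6 to 9 between adrenal controls, 0 to 2 in adrenal gland on day 4, 1 to 4 in liver and in pancreas at 60 mg/kg on day 14, 0 to 1 in liver on day 4, 1 to 3 at 60 against 3 mg/kg in liver and in pancreas, and 0 to 1 for 30 against 3 mg/kg of AMG A in liver. For effects between tissues it gave 2 to 6 (adrenal gland and liver) and 2 to 4 (pancreas and liver). The cause of these changes was not tested. None of the 54 named calls changed sign under the alternatives run for it. Signs of values named without a call were not compared across the alternatives. With the animal number as a replicate block the counts were 6 (effect, adrenal gland and liver), 2 (pancreas and liver) and 9 (adrenal gland and pancreas), as without the pairing, and no call changed. The pseudocount and the filter on low values were not run, since scores cannot be logged. Signal over background is unknown, so a small difference in a dim probe set cannot be told from none.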
